A study of Mus musculus with 44 samples.

Results

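Collagen chain genes encode the alpha chains that wind around one another into collagen. The members were the rows of a mouse gene count table whose GENCODE M21 symbol is Col, a number, a and a number, and whose gene is protein coding: 44 of 54146 rows, or of the 21906 protein-coding rows. Fibrillar collagens (type I, II, III, V, XI, XXIV and XXVII) form fibrils, type IV chains build the sheet of every basement membrane, and type IX, XII, XIV and other FACIT chains sit on fibril surfaces. Types XV and XVIII (the multiplexins) carry sugar chains and end in a part that can be released, which for type XVIII is endostatin. In the brain, the basement membrane around vessels and under the pia is the best known collagen structure, and astrocytes contribute to it with endothelial and mural cells.

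The libraries were bulk RNA-seq of primary astrocytes and primary microglia, purified from mice, cultured in media made for the human cells and left untreated. Each cell type had 6 libraries labelled APOE33 and 6 labelled APOE44 (the names of the human ε3 and ε4 genotypes), 4 from Apoe knock-out mice (KO) and 6 from mice with wild-type Apoe (WT). Strain, age and the number of animals behind a culture are not given in the labels, so p-values measure the spread between these libraries, which may be partly technical. The KO group had 1 female-labelled library per cell type, replicate 1, so that library and that sex cannot be told apart within KO. All 12 WT libraries carry batch tag 2 and the other 32 carry batch tag 1, so WT against any other genotype is also batch against batch.

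Library totals ran from 83239599 to 143150569 counts. Levels below are CPM (counts relative to library size, TMM-scaled over all 44 libraries), and levels of different genes are compared per kb of exon. Log2 fold changes, their standard errors (SE) and adjusted p are from edgeR's quasi-likelihood test with Benjamini-Hochberg adjustment over all genes tested, and a gene was called at an adjusted p under 0.05. As a check of the labels, mean mouse Apoe was 5813 CPM in WT astrocytes and 51373 CPM in WT microglia, and 11.4 to 55.1 CPM in the 6 other groups, where it was lowest in KO of either cell type. Summed astrocyte markers (10 genes) were 9994 to 15271 CPM in astrocytes and 32.8 to 136 CPM in microglia. The 11 microglial markers summed to 13704 to 23620 CPM in microglia and 100 to 379 CPM in astrocytes. In bulk cultures, a change in the number of cells of a type and a change in RNA per cell cannot be told apart.

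The sequences upstream of 3 chains that were higher in KO astrocytes are shown because these chains were called against both APOE groups: Col4a5 and Col4a6, a pair that starts back to back on chromosome X, and Col9a1, which has 2 annotated starts. RefSeq windows (GRCm38.p6) of the 250 bases before a start were matched to 35 of the 44 members. Exonic bases at the end of a window are left off, and capitals mark CCAAT or GGGCGG, or the reverse complement of either, lying wholly in the printed run.
Col4a5, chrX:141475169-141475384, plus strand: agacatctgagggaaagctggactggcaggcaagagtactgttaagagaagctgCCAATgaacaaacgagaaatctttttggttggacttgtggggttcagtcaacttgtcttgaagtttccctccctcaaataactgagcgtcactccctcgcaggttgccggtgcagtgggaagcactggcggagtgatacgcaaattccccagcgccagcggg
Col4a6, chrX:141474077-141474326, minus strand: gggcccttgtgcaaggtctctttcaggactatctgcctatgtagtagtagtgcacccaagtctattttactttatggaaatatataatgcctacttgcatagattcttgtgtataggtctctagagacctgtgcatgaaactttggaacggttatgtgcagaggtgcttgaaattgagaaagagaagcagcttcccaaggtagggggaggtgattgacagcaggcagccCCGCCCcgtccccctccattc
Col9a1, upstream start, chr1:24177360-24177609, plus strand: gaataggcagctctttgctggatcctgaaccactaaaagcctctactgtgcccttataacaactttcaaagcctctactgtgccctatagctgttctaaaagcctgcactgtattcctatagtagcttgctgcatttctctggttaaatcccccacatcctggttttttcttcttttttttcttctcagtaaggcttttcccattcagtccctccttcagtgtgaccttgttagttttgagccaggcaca
Col9a1, downstream start, chr1:24194953-24195186, plus strand: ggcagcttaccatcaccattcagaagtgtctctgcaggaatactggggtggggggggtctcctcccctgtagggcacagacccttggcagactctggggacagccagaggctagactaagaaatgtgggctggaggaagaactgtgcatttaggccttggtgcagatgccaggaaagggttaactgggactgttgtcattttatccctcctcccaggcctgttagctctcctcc
The upstream start of Col9a1 gives the long form of the chain and the downstream start a short form, and gene counts do not separate them. For the following shares the whole windows were searched, exonic bases included, and some windows, such as that of Col4a2, were exonic throughout. Over the 38 windows of the 35 matched members, GGGCGG on either strand was in 57.9%, against 32.7% of all 32851 RefSeq windows of that length. CCAAT was in 34.2% against 33.8%, and TATAAA in 13.2% against 12.4%. These motifs were chosen after the values of the chains were seen, and a match is a description of letters only.

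Astrocytes held a collagen profile led by type IV. Of the 44 chains, 13 had a mean of at least 10 CPM over the 22 astrocyte libraries, 16 had 1 to 10 CPM and 15 were under 1 CPM, and all chains together summed to 919 to 1463 CPM (median 1106). Per kb of exon, Col4a1 was highest at a median of 33.4 CPM (20.2 to 47.6 over the 22 libraries), followed by Col4a5 at 23.1 CPM (20.6 to 30.8). Next came the fibril chain Col5a2 at 12.5 CPM per kb (10.4 to 18.1), then Col4a2 at 11.5 (8.63 to 16.9), Col4a6 at 10.8 (9 to 15.1) and the endostatin precursor Col18a1 at 8.59 (6.25 to 19). The ranges of Col4a1 and Col4a5 overlapped each other, and those of Col5a2, Col4a2, Col4a6 and Col18a1 did too. Col8a1, a chain of the hexagonal networks of vessel walls and cornea, had 7.63 CPM per kb (5.98 to 12.6), and the fibril chain Col11a1 had 7.3 (4.94 to 10.4). All 6 type IV chains were present, the other 2 being Col4a4 at a median of 4.7 and Col4a3 at 4.14 CPM per kb. Col1a1, the main chain of skin and bone collagen, was low, with astrocyte means by genotype of 0.0818 to 1.91 CPM. Markers of other cells, some of which make type IV collagen, are given beside these levels. The 12 meningeal fibroblast markers had the largest sum of these lists in astrocytes, 870 to 2095 CPM. Of it, 84.1% to 91.5% was Ogn, and 4 or 5 of the 12 markers were under 0.1 CPM in each genotype. The 10 endothelial markers summed to 469 to 896 CPM in astrocytes, 98.2% to 98.5% of it Slco1a4, while the defining marker Cldn5 was at most 0.0728 CPM. The 10 mural markers summed to 151 to 463 CPM, led by Acta2 or Pdgfrb, with Kcnj8 at most 0.0907 CPM. Oligodendrocyte lineage markers (10 genes) summed to 133 to 319 CPM, neuron markers (10 genes) to 178 to 279 CPM, 76.3% to 86.7% of it Map2, and markers of ependyma and choroid plexus (8 genes) to 103 to 363 CPM, led by Foxj1. Their part in the collagen levels was not tested.

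**Figure D1:**
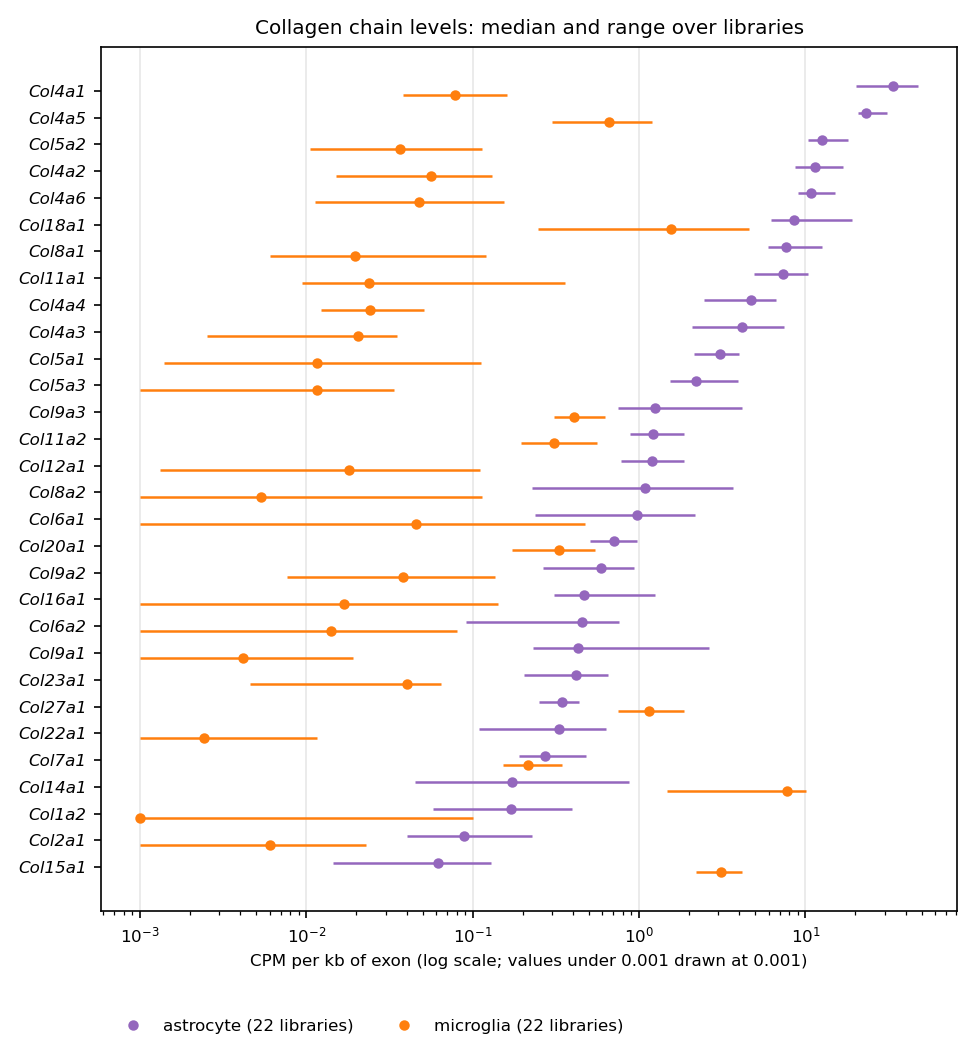
Level of 30 collagen chains in CPM per kb of exon (log scale), with a point at the median and a line over the range of 22 astrocyte and 22 microglial libraries; values under 0.001 are drawn at 0.001. Type IV chains led in astrocytes, with Col4a1 at a median of 33.4. Col14a1 and Col15a1 led over all 22 microglial libraries at 7.75 and 3.09, though Col14a1 did not lead in the WT libraries among them.

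Microglia held few collagens. There, 4 of the 44 chains had a mean of at least 10 CPM, 5 had 1 to 10 CPM and 35 were under 1 CPM, and the chains summed to 76.5 to 139 CPM (median 117). Over all 22 microglial libraries, the FACIT chain Col14a1 led with a median of 7.75 CPM per kb (1.47 to 10.1). Then came the multiplexin Col15a1 with 3.09 (2.19 to 4.13), Col18a1 with 1.56 (0.247 to 4.55) and the fibril chain Col27a1 with 1.14 (0.742 to 1.85). The ranges of these 4 overlapped one another in that order. The next chain, Col4a5, had a median of 0.659 CPM per kb. In the 6 WT libraries taken alone Col14a1 did not lead. There all 9 FACIT and FACIT-like chains together had a mean sum of 15.7 CPM, and the 2 multiplexins, of similar exon length to Col14a1, 37.4 CPM.

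Most chains were lower in microglia than in astrocytes. In the 32 libraries of batch 1, 31 of the 37 chains tested were lower in microglia and 4 were higher, a share called of 94.6%, where 90.9% of all genes were called. Since nearly every gene differed between the cell types, the direction carries the contrast: 50.6% of all genes were lower and 40.3% higher. The median log2 fold change was −5.43 over the 37 chains and −0.25 over all genes. In the genotype comparisons below, the median over all genes lay between −0.03 and 0.01.

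The chains that were higher in microglia were Col15a1, Col14a1, Col24a1 and Col27a1. Col15a1 had a mean of 20.6 CPM in the 16 microglial libraries and 0.363 CPM in the 16 astrocyte libraries of batch 1, with no overlap (log2 fold change 5.77, SE 0.197, adjusted p = 7.6e-21). For Col14a1 the means were 58.4 and 1.9 CPM (log2 fold change 4.98, SE 0.267) and for Col27a1 16.7 and 4.4 CPM (1.89, SE 0.104). Col24a1, a fibril chain, was higher in microglia at a low level, with means of 0.261 and 0.0336 CPM and overlapping ranges. Astrocyte cultures contained the microglial markers given above, all 11 of them above 0 in every genotype, and their part in the astrocyte counts of Col14a1 and Col15a1 was not tested. The largest fall was that of Col4a1, from 266 CPM in astrocytes to 0.605 CPM in microglia (log2 fold change −8.73, SE 0.151). Col9a1, Col8a1, Col5a2, Col1a2 and Col5a3 followed, with log2 fold changes of −8.45, −8.44, −8.24, −8.13 and −7.99. All 6 type IV chains were lower, the least so Col4a5 at −5.43.

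The WT libraries gave the contrast a separate set of cultures. There 30 of 35 chains were lower in microglia and 4 higher (97.1% called, against 89.5% of all genes, 47.9% lower and 41.6% higher), with a median log2 fold change of −4.77 over the chains and −0.13 over all genes. The higher ones were again Col15a1 (5.44), Col24a1 (3.37), Col14a1 (3.31) and Col27a1 (1.18). Col26a1 had no count in the 6 WT microglial libraries and 0.429 CPM in WT astrocytes, at least 70.4-fold lower in microglia against a floor of 3 counts over the group. Col6a5 had no count in WT microglia either, and was at least 44.7-fold lower against the same floor. Such folds and floors cover counting error only, and most low counts were even, so a count is not an independent molecule.

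Between APOE44 and APOE33, no collagen chain was called in either cell type. In astrocytes, 0 of 36 chains tested were called, where 0.703% of all genes were (0.42% higher, 0.283% lower), and 8 of 36 had an unadjusted p under 0.05 (9.91% of all genes did). In microglia 0 of 26 chains were called, where 0.84% of all genes were (0.379% higher, 0.461% lower), and 1 of 26 had an unadjusted p under 0.05 (11.9% of all genes). DESeq2 called 1 chain in astrocytes, Col4a4, and none in microglia.

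The chains nearest a call in astrocytes were Col4a4 and Col4a3, the partner chains of the mature kidney and lung basement membrane. Col4a4 was at 42.7, 51.1 and 67.1 CPM (lowest, median, highest) in the 6 APOE33 libraries and at 26.1, 36.7 and 48.2 CPM in the 6 APOE44 libraries. Its ranges overlapped, and its log2 fold change was −0.58 (SE 0.182, adjusted p = 0.249 with edgeR, 0.0284 with DESeq2). Col4a3 ran from 33.8 to 74.2 CPM in APOE33 and from 20.7 to 48.2 CPM in APOE44, a log2 fold change of −0.65 that was not called (adjusted p = 0.341). Col4a1, the most abundant chain, had means of 269 CPM ± 51 (SD, n = 6) in APOE33 and 271 CPM ± 31 (n = 6) in APOE44. In microglia, Col18a1 had a mean of 5.04 CPM ± 3.67 in APOE33 and 11.7 CPM ± 7.34 in APOE44, a log2 fold change of 1.31 (SE 0.52) that was not called (adjusted p = 0.33). Without microglia APOE33 replicate 2, which had 8.54 CPM of summed neuron markers and 4.55 CPM of Col11a1, the FACIT-like chain Col16a1 was called (log2 fold change 5.06, adjusted p = 0.0318). The part of those markers was not tested.

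**Figure D2:**
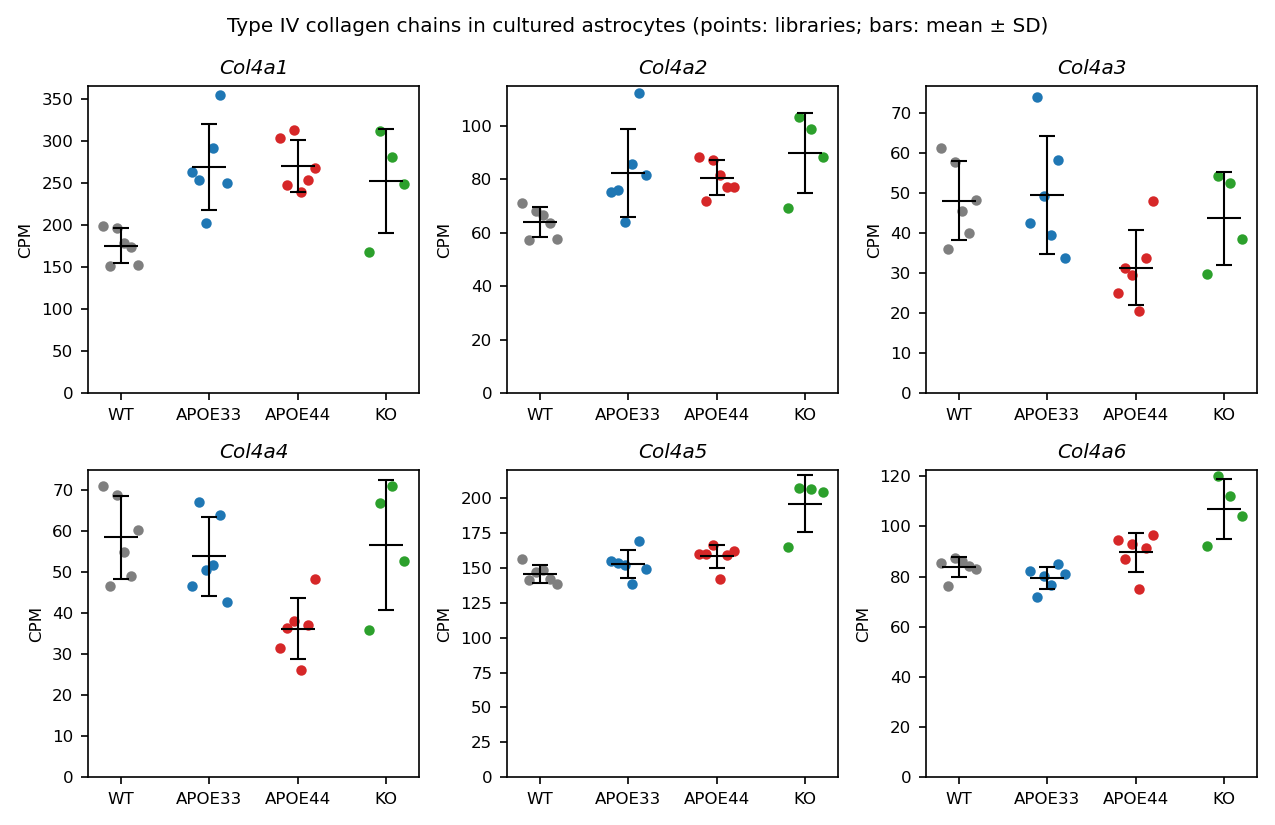
CPM of the 6 type IV collagen chains in astrocytes by genotype (points are libraries, bars are mean ± SD; n = 6, 6, 6 and 4). Col4a5 and Col4a6 lay highest in KO, at means of 195 and 107 CPM, and Col4a3 and Col4a4 lay lowest in APOE44, a difference from APOE33 that edgeR did not call.

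With edgeR, knock-out astrocytes differed from both APOE groups in 4 chains: Col4a5, Col4a6, Col9a1 and Col9a3, all higher in KO. In edgeR with a replicate block, or with only the 2 compared groups, 3 of them were left, without Col4a6. DESeq2 called all 4 and also Col18a1 and Col8a1 higher, and Col22a1, Col6a2 and Col9a2 lower, against both groups. Against APOE33, 5 of 36 chains were higher and 1 was lower, a share of 16.7% where 17.2% of all genes were called (8.37% higher, 8.83% lower). Against APOE44, 8 were higher and 3 lower, or 30.6% where 22.7% of all genes were called (11% higher, 11.8% lower). The share against APOE33 was thus near the background. The comparisons share the 4 KO libraries and are given side by side. The median log2 fold change over the 36 chains was −0.02 against APOE33 and 0.04 against APOE44.

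Type IX collagen, a fibril-associated collagen of cartilage and the vitreous, showed the largest rise and also a fall. Col9a1 was at 13.4, 6.84, 6.28 and 7.78 CPM in KO replicates 1 to 4. It was at 1.29, 2.55 and 4.58 CPM (lowest, median, highest) in APOE33 and at 1.72, 2.17 and 3.28 CPM in APOE44. Every KO library was above every library of both APOE groups, with replicate 1 the highest. The log2 fold change was 1.71 against APOE33 (SE 0.306, adjusted p = 0.00244) and 1.90 against APOE44 (SE 0.3, adjusted p = 0.000586). Without KO replicate 1 these were 1.4 (adjusted p = 0.0316) and 1.62, still called.

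Col9a3 followed with 7.22, 7.38, 7.21 and 6.17 CPM in the KO libraries. Its range was 3.29 to 5.08 CPM in APOE33 and 2.9 to 4.45 CPM in APOE44, so neither group reached KO. The log2 fold change was 0.81 (SE 0.138, adjusted p = 0.00143) against APOE33 and 0.88 (SE 0.133, adjusted p = 0.000306) against APOE44. Col9a3 overlaps Tcfl5 on the other strand by 234 bases, and whether the counting used strand is not given in the sources used here. Tcfl5 itself had a mean of 0.146 CPM in astrocytes.

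The remaining type IX chain, Col9a2, went the other way. It was at 0.82, 1.46, 1.26 and 1.03 CPM in KO and at 1.79 to 2.89 CPM in APOE44, without overlap (log2 fold change −0.95, SE 0.221, adjusted p = 0.00622). Against APOE33, which ran from 1.18 to 2.16 CPM, the ranges overlapped and edgeR did not call it (−0.65, adjusted p = 0.0609). It was called by DESeq2 (0.0233), without the sex term (0.0482) and without APOE33 replicates 4 or 6 or KO replicate 2 (0.0306 to 0.0477). The 3 chains of one trimer thus differed from APOE44 in opposite directions in the same KO libraries.

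Among type IV chains, the X-linked pair rose. Col4a5 was at 165, 207, 206 and 204 CPM in KO, at 138, 152 and 169 CPM (lowest, median, highest) in APOE33 and at 142, 160 and 166 CPM in APOE44. In 3 KO libraries it lay above every APOE library, while KO replicate 1 overlapped both groups. Its log2 fold change was 0.29 against APOE33 (SE 0.0638, adjusted p = 0.0066) and 0.26 against APOE44 (SE 0.0612, adjusted p = 0.00629). Col4a6, its head-to-head neighbour, was at 92, 120, 112 and 104 CPM in KO, against 71.8 to 84.8 CPM in APOE33 and 75.2 to 96.5 CPM in APOE44. KO lay wholly above APOE33 (log2 fold change 0.35, SE 0.0677, adjusted p = 0.00322) and overlapped APOE44 in replicate 1 (0.20, SE 0.0652, adjusted p = 0.0333). The call against APOE44 was lost when any of APOE44 replicates 2, 3, 4 or 5 or KO replicates 2 or 3 was left out (adjusted p 0.0516 to 0.108). A replicate block (0.0574) and a fit of only those 2 groups (0.0563) lost it too.

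The vascular pair of type IV chains, Col4a1 and Col4a2, was not called in KO against either APOE group. Col4a1 was at 168, 312, 281 and 249 CPM in the KO libraries, with log2 fold changes of −0.17 against APOE33 and −0.15 against APOE44. Col4a4 was called against APOE44 in the fit with all libraries (0.61, SE 0.204, adjusted p = 0.0446). It was lost in 8 of 10 fits that left out 1 library, those without APOE44 replicates 1 to 5 or KO replicates 2 to 4 (adjusted p 0.0608 to 0.13). Col4a4 was not called without the low-count filter (0.106) or with only those 2 groups (0.1). Against APOE33 its log2 fold change was 0.03.

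**Figure D3:**
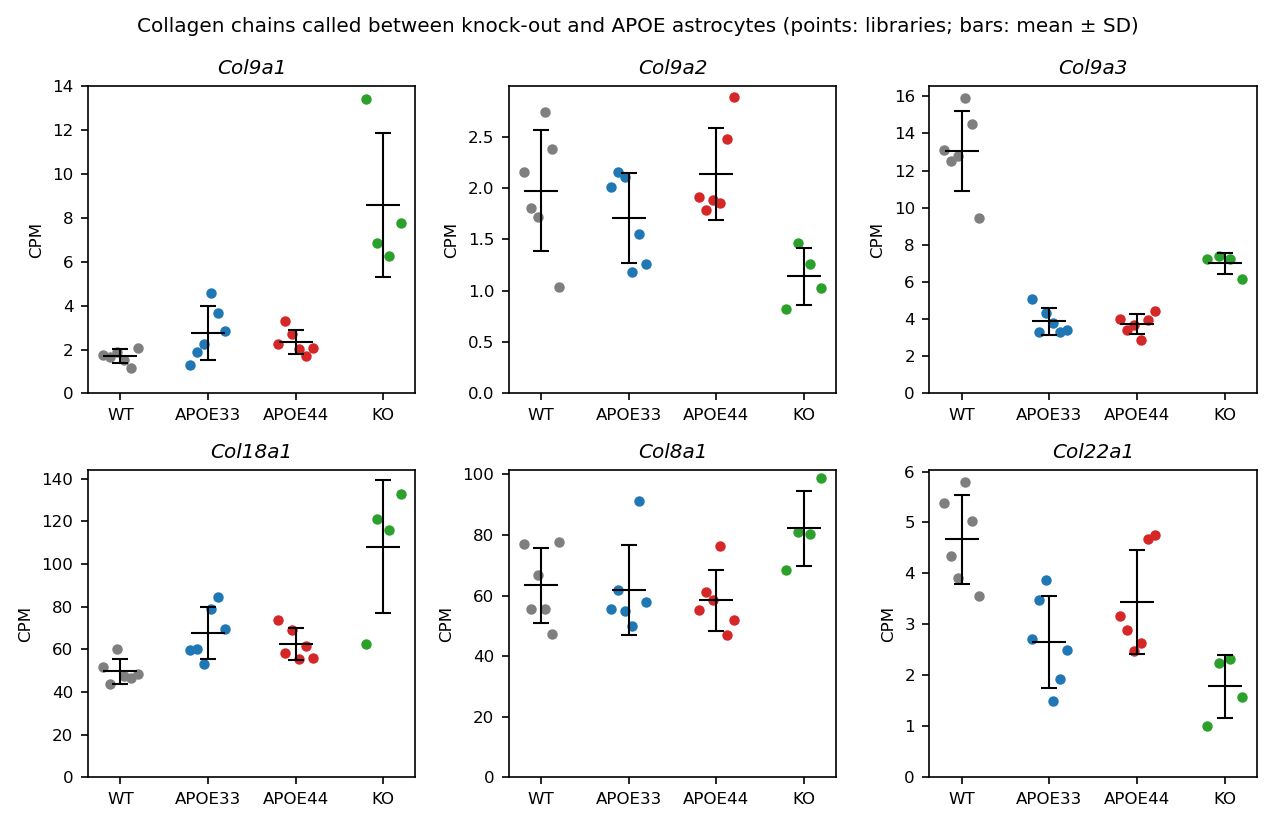
CPM of 6 chains in astrocytes by genotype (points are libraries, bars are mean ± SD; n = 6, 6, 6 and 4). Every KO value of Col9a1 and Col9a3 lay above every APOE33 and APOE44 value, while those of Col9a2 and Col22a1 lay below every APOE44 value.

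Col18a1 and Col8a1 were higher in KO than in APOE44. Col18a1 was at 62.6, 121, 116 and 133 CPM in KO, 53.1 to 84.8 CPM in APOE33 and 55.7 to 73.9 CPM in APOE44. KO replicates 2, 3 and 4 lay above every APOE library and replicate 1 lay among them. It was called against APOE44 (log2 fold change 0.70, SE 0.175, adjusted p = 0.0116) and not against APOE33 (0.52, adjusted p = 0.0731), where it was called by DESeq2 (adjusted p = 0.0168), without the sex term (0.0205) and without KO replicate 1 (0.79, adjusted p = 0.0118) or without APOE33 replicate 5 (0.58, adjusted p = 0.0349). Col8a1 was at 68.5, 80.9, 80.3 and 98.8 CPM in KO and at 46.9, 57 and 76.4 CPM (lowest, median, highest) in APOE44, with overlap (0.51, SE 0.169, adjusted p = 0.0445). This call was lost without any of APOE44 replicates 1, 2, 3, 5 or 6 or KO replicates 2, 3 or 4 (adjusted p 0.0617 to 0.13). It was also lost without the low-count filter (0.0998) and with a replicate block (0.103).

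KO replicate 1 stood apart from the other KO astrocyte libraries in many chains. It was the lowest of the 4 for all 6 type IV chains and for Col18a1, Col8a1, Col8a2, Col5a1, Col5a2, Col6a1, Col6a2, Col9a2, Col11a1 and Col22a1, among others, and the highest for Col9a1 and Col11a2. Without it, Col18a1 gained a call against APOE33, and Col11a1 (0.45, adjusted p = 0.0258) and Col5a2 (0.43, adjusted p = 0.0305) gained one against APOE44. Other cell markers moved with that library: meningeal fibroblast markers (12 genes) summed to 1107, 2095, 1976 and 1503 CPM in KO replicates 1 to 4, mural markers to 151, 305, 321 and 227 CPM and endothelial markers to 469, 880, 771 and 614 CPM. Over groups, the meningeal sum was 1107 to 2095 CPM in KO, 1062 to 1580 CPM in APOE33 and 870 to 1194 CPM in APOE44, 84.1% to 88.4% of it Ogn, with Slc22a6 at 0 in all of them. Neuron markers summed to 251 to 279 CPM in KO, 192 to 264 CPM in APOE33 and 214 to 262 CPM in APOE44, with Rbfox3, Snap25 and Slc17a6 at 0 in KO. Microglial markers ran from 175 to 343 CPM in KO, overlapping APOE33 (120 to 379 CPM) and APOE44 (100 to 342 CPM). Astrocyte markers summed to 9994 to 12918 CPM in KO, below every APOE44 library (12941 to 15271 CPM) and overlapping APOE33 (10399 to 15174 CPM). Both other lists were lower in KO than in every APOE library: oligodendrocyte lineage markers at 182 to 194 CPM (APOE33 207 to 234, APOE44 234 to 319), led by Cnp, and markers of ependyma and choroid plexus at 103 to 205 CPM (APOE33 231 to 319, APOE44 257 to 363). The part of these markers in the KO results was not tested.

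Lower chains in KO were Col22a1, Col5a1 and Col1a1. Col22a1, a chain of muscle-tendon junctions, was at 0.999, 2.25, 2.32 and 1.58 CPM in KO and at 2.48 to 4.76 CPM in APOE44, with no overlap (−1.09, SE 0.29, adjusted p = 0.0137, and 0.0723 without KO replicate 1 or 0.0554 with a replicate block). Against APOE33 it was not called (−0.77, adjusted p = 0.0842, and 0.0291 with DESeq2). Col5a1, which controls fibril width, had means of 26.2 CPM in KO and 30.6 CPM in APOE44 with overlapping ranges. Its call (−0.31, SE 0.107, adjusted p = 0.0454) was lost without any of APOE44 replicates 1, 4, 5 or 6 or any KO library (adjusted p 0.0591 to 0.106). It was also lost without the low-count filter (0.0715), without the sex term (0.187) and with a replicate block (0.11). Col1a1 was at 0.0597, 0.0812, 0 and 0.186 CPM in KO and at 0.088 to 0.485 CPM in APOE33, a few counts per library. Its call against APOE33 (−1.91, SE 0.557, adjusted p = 0.0274) was lost without APOE33 replicate 3 or KO replicates 1 or 2 (adjusted p 0.0526 to 0.0792). It was also lost without the sex term (0.0962), with a replicate block (0.106) and with only the 2 groups (0.0968).

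The chains left were called in 1 of the 2 comparisons at low levels. The membrane-spanning Col23a1 had means of 3.27 CPM in KO and 2.23 CPM in APOE33 (0.53, SE 0.175, adjusted p = 0.0474), and lost its call without any of APOE33 replicates 1, 3 or 4 or KO replicates 1, 3 or 4 (adjusted p 0.0536 to 0.244). Col23a1 was not called without the low-count filter (0.0599) or with only those 2 groups (0.12). Against APOE44 its log2 fold change was 0.34 and was not called. Col10a1, the collagen of growth plate cartilage, was at 0.0894 to 0.119 CPM in KO and at 0.0148 to 0.0591 CPM in APOE44 (1.40, SE 0.351, adjusted p = 0.00956). It shares 18 bases with Nt5dc1 on the other strand, which had a mean of 9.36 CPM in astrocytes, and the part of such reads was not tested.

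The number of chains called in KO astrocytes moved when single libraries were left out. Against APOE33, 8 chains were higher without APOE33 replicate 5, which was the highest of its group for Col5a2 and Col8a1. None was lower without APOE33 replicate 3 or KO replicate 1, 2 were lower without APOE33 replicate 4 and 3 without APOE33 replicate 6. Without KO replicate 2, 2 were lower. Against APOE44, 5 chains were higher without APOE44 replicates 2, 3 or 5 or KO replicates 2 or 3, and 1 was lower without KO replicate 1.

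In knock-out microglia, the called chains were of low level apart from Col15a1. Against APOE33, 4 of 26 chains tested were higher and 2 lower, 23.1% where 22.7% of all genes were called (10.9% higher, 11.9% lower). Against APOE44, 4 were higher and none was lower, 15.4% where 26.9% of all genes were called (13.6% higher, 13.4% lower). With DESeq2, 1 chain was lower against APOE44, Col15a1, and 7 of the 26 had an unadjusted edgeR p under 0.05 (38.2% of all genes did). The shares were thus near or below the background. The leading chain, Col14a1, was at 51.9, 54.7, 60.2 and 65.8 CPM in KO, within or beside the APOE33 range of 51.9 to 70.5 CPM and the APOE44 range of 50.3 to 64.8 CPM, and was not called.

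Col9a3 was higher in KO microglia, as in KO astrocytes. It was at 2.3, 2.31, 2.4 and 1.94 CPM in KO, 1.21 to 1.68 CPM in APOE33 and 1.27 to 1.61 CPM in APOE44, with no overlap. The log2 fold change was 0.56 against each (SE 0.132 and 0.127, adjusted p = 0.00582 and 0.00393). Col11a2, a minor chain of cartilage fibrils, was at 3.03, 3.85, 2.97 and 3.46 CPM in KO, above 1.62 to 2.84 CPM in APOE33 and 1.43 to 2.47 CPM in APOE44. Its log2 fold change was 0.59 against APOE33 (SE 0.187, adjusted p = 0.0319) and 0.78 against APOE44 (SE 0.177, adjusted p = 0.00384). The call against APOE33 was lost without APOE33 replicates 3 or 6 or KO replicates 2 or 4 (adjusted p 0.0691 to 0.0976), and with a replicate block (0.153). Col7a1, the anchoring fibril of skin, was at 3.03, 3.53, 3.52 and 3.52 CPM in KO, above the APOE44 range of 1.61 to 2.73 CPM (0.56, SE 0.133, adjusted p = 0.00538). Against APOE33 edgeR did not call it (0.39, adjusted p = 0.0535). It was called by DESeq2 (0.0289), without the sex term (0.0291) and without APOE33 replicates 1 or 3 (0.0382 and 0.0226).

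Col8a1 rose from a very low level against both APOE groups, and Col4a1 against APOE33. Col8a1 was at 0.937, 0.144, 0.289 and 0.753 CPM in KO microglia, 0.0473 to 0.158 CPM in APOE33 and 0.0617 to 0.179 CPM in APOE44. KO replicate 2 lay within both APOE ranges and the other 3 KO libraries above them. The log2 fold change was 2.49 against APOE33 (SE 0.435, adjusted p = 0.000734) and 2.14 against APOE44 (SE 0.417, adjusted p = 0.00136). Col4a1 had means of 0.863 CPM in KO and 0.503 CPM in APOE33 (0.82, SE 0.285, adjusted p = 0.0491), and its call was lost without any of APOE33 replicates 1, 3, 4 or 5 or KO replicates 1, 3 or 4 (adjusted p 0.0674 to 0.163). Col4a1 also lost this call without the low-count filter (0.079), with a replicate block (0.0693) and with only those 2 groups (0.102). Against APOE44 it was not called (0.72, adjusted p = 0.0642), except without APOE44 replicate 3 (0.0373), without KO replicate 2 (0.0418) and without 3 microglial libraries together (0.0229).

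These chains are abundant in astrocytes, so astrocyte markers are given beside them. The 10 markers summed to 136, 92, 92 and 122 CPM in KO microglia, 32.8 to 87.1 CPM in APOE33 and 38.9 to 89.8 CPM in APOE44, so KO lay above both groups, and none of the 10 was at 0 in every library. The sum was led by Aldoc (mean 49.8 CPM in KO, 16.4 in APOE33) and Aldh1l1 (31.1 against 8.21 CPM), whereas Slc1a2 was at 0.973 CPM in KO and 2.12 CPM in APOE33 and S100b at 0.0639 and 0.415 CPM. Mural markers were at 40.2 to 81.3 CPM in KO microglia, 74 to 155 CPM in APOE33 and 122 to 177 CPM in APOE44, 95.5% to 98.3% of it Cspg4. Endothelial markers were at 197 to 334, 148 to 219 and 170 to 229 CPM in the same order, led by Flt1, and those of ependyma and choroid plexus at 1.54 to 3.13, 1.11 to 1.6 and 1.13 to 1.64 CPM. Oligodendrocyte lineage markers (176 to 182 CPM in KO, led by Mbp) and neuron markers (0.502 to 2.13 CPM) overlapped APOE33; the oligodendrocyte sum lay below every APOE44 library (186 to 243 CPM). The part of these markers in the Col8a1 and Col4a1 results was not tested.

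Lower chains in KO microglia were Col15a1 and Col9a2, both against APOE33. Beside this, summed microglial markers were 17656 to 18764 CPM in KO microglia, below every APOE33 library (19598 to 23620 CPM) and overlapping APOE44 (18558 to 22355 CPM), and their part was not tested. Col15a1 was at 16.2, 19.2, 17.8 and 17.8 CPM in KO, 18.3 to 26.2 CPM in APOE33 and 19.7 to 23 CPM in APOE44. It overlapped APOE33 and lay below every APOE44 library, and edgeR called it against APOE33 (−0.37, SE 0.101, adjusted p = 0.0149) and not against APOE44 (−0.25, adjusted p = 0.0625). DESeq2 (adjusted p = 0.0412) and edgeR on the KO and APOE44 libraries alone (adjusted p = 0.00602) called it against APOE44 too. The call against APOE33 was lost without APOE33 replicate 3 (adjusted p = 0.06) or KO replicate 1 (adjusted p = 0.0926). EdgeR on the KO and APOE33 libraries alone did not call it either (adjusted p = 0.0622). Col9a2 had means of 0.0727 CPM in KO and 0.214 CPM in APOE33 (−1.83, SE 0.605, adjusted p = 0.039), a call lost without any of APOE33 replicates 1 to 4 or KO replicates 1, 2 or 4 (adjusted p 0.0524 to 0.141). The call was also lost without the low-count filter (0.0502), without the sex term (0.0665) and with a replicate block (0.138). No chain was lower without APOE33 replicate 3 or KO replicate 1, and 1 was without APOE33 replicates 1, 2 or 4 or KO replicates 2 or 4. Without KO replicate 4, 2 rather than 4 were higher.

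**Figure D4:**
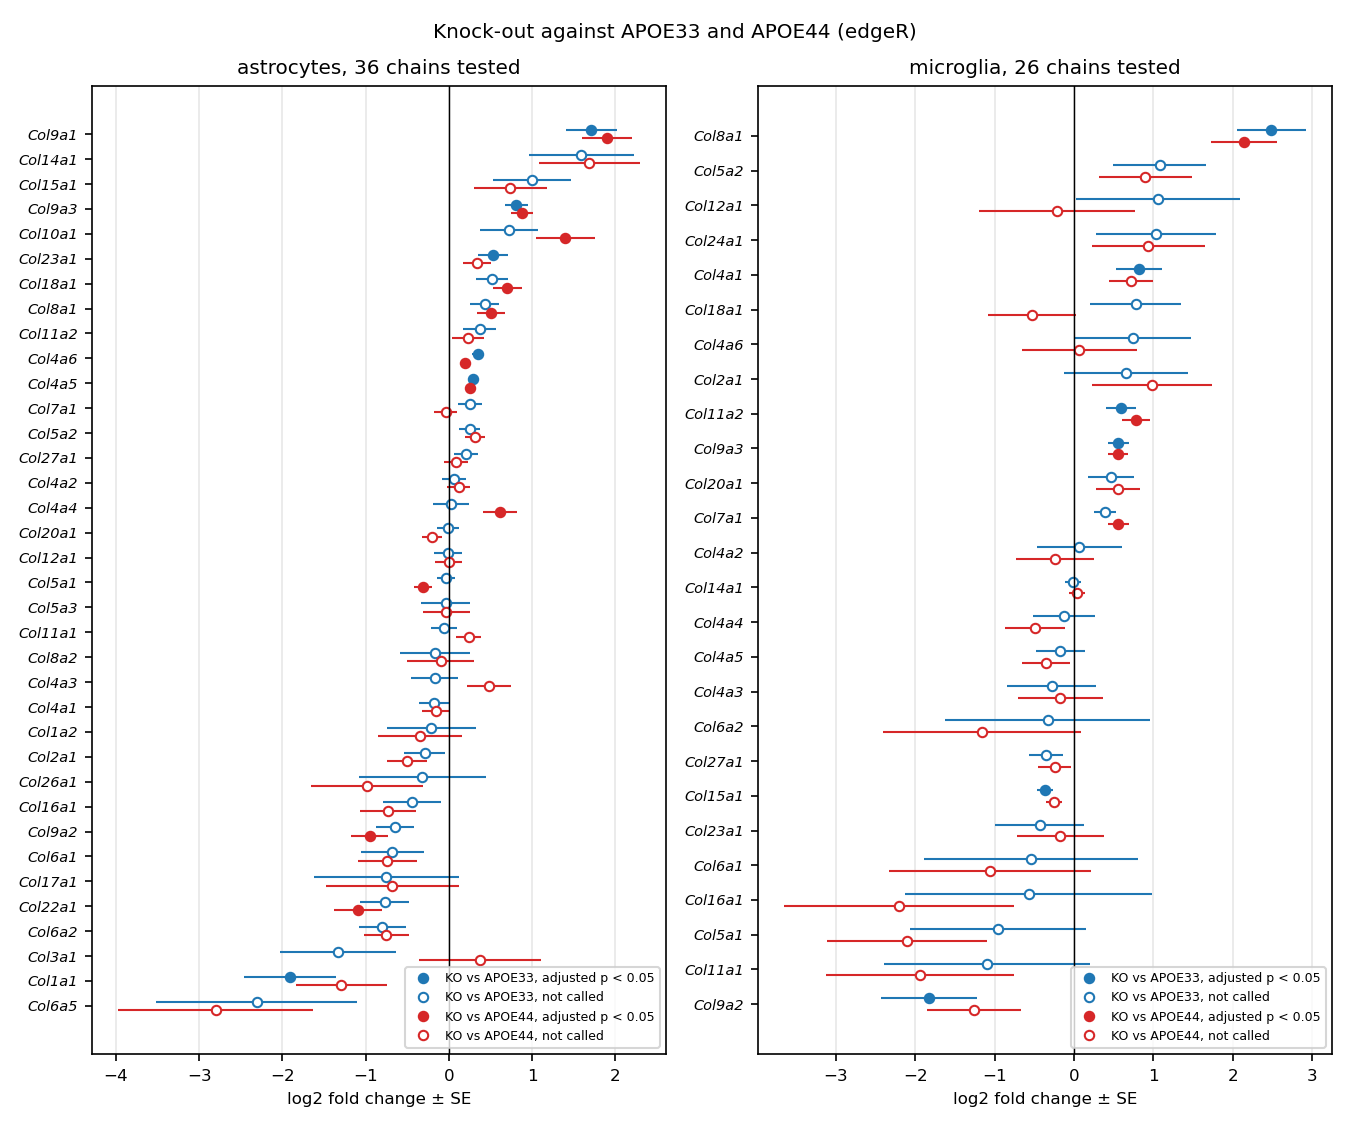
Log2 fold change ± SE of each tested chain in KO against APOE33 and against APOE44, in astrocytes (36 chains) and microglia (26 chains); filled points have an edgeR adjusted p under 0.05. The type IX chains Col9a1 and Col9a3 lay right of 0 in astrocytes and Col8a1, at 2.49 and 2.14, lay farthest right in microglia.

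The difference of the KO effect between the cell types, microglia minus astrocytes, was tested in 1 fit over batch 1. Against APOE33, 2 of 37 chains had a higher effect in microglia and 1 a lower one, 8.11% where 12.7% of all genes were called (6.18% higher, 6.55% lower). For Col8a1 the difference was 2.14 on the log2 scale (SE 0.458, adjusted p = 0.0022), lost without microglia KO replicate 1 (adjusted p = 0.0531). Col4a1 differed by 0.99 (SE 0.33, adjusted p = 0.0475) and lost its call in 23 of 32 fits that left out 1 library. Col15a1 differed by −1.37 (SE 0.456, adjusted p = 0.0465) and lost its call in 19 of 32. Its astrocyte level was low, at a mean of 0.369 CPM over the 22 astrocyte libraries. Col4a5 and Col4a6, called in astrocytes and not in microglia, were not called for a difference between the cell types (−0.46, adjusted p = 0.404, and 0.42, adjusted p = 0.763). For APOE44 against APOE33, 0 of 37 chains differed between the cell types, where 0.296% of all genes were called (0.152% higher, 0.143% lower), 6 chains passed an unadjusted p of 0.05 (11.4% of all genes did), and 1 chain, Col9a1, was called by DESeq2. Without microglia APOE33 replicate 2, 3 chains were called there: Col5a1, Col11a1 and Col16a1.

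The machinery that folds, trims, binds and degrades collagen was described from 4 lists, whose counts stand beside the 17.2% (against APOE33) and 22.7% (against APOE44) of all genes called in KO astrocytes. Of 23 folding and modification genes, 3 were higher and 1 lower in KO astrocytes against APOE33, and 3 higher and 2 lower against APOE44. Serpinh1, the collagen chaperone of the endoplasmic reticulum, had means of 137 CPM in KO, 188 CPM in APOE33 and 191 CPM in APOE44 (log2 fold changes −0.53 and −0.52, adjusted p = 0.00105 and 0.000391). Of the 15 processing and cross-linking genes tested, 1 was lower against APOE33, and 4 were higher and 1 lower against APOE44. The lower one was Sparc, a collagen-binding matrix protein, at 2734 CPM in KO, 4323 CPM in APOE33 and 4230 CPM in APOE44 (−0.74 and −0.68). Among the higher ones, Loxl1 was at 25.1 CPM in KO and 6 CPM in APOE44 (2.11, adjusted p = 0.00806). Of 12 receptors tested, 2 were higher and 2 lower against APOE33, and 3 higher and 2 lower against APOE44, among them Itga1, a chain of a collagen-binding integrin (282, 214 and 187 CPM in KO, APOE33 and APOE44), and Ddr1, a collagen-activated kinase (804, 948 and 974 CPM). The call of Itga1 against APOE33 was lost without APOE33 replicate 3 (adjusted p = 0.0508) and that of Ddr1 without KO replicate 1 (adjusted p = 0.0713). None of the 5 degradation genes tested was called in KO astrocytes against APOE33 or APOE44.

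In KO microglia, the counts stand beside 22.7% of all genes called against APOE33 and 26.9% against APOE44. Of the 23 folding genes, 6 were higher and 3 lower against APOE33, and 7 higher and 2 lower against APOE44. Crtap, part of the prolyl hydroxylase complex that modifies fibril chains, was at 117 CPM in KO, 72.1 CPM in APOE33 and 69.7 CPM in APOE44 (0.67 and 0.73). Of 9 processing genes, 1 was higher and 1 lower against APOE33, and 2 higher and 1 lower against APOE44. Bmp1, which cuts the end of fibril precursors, was at 5.13 CPM in KO, 15.7 CPM in APOE33 and 15.4 CPM in APOE44 (−1.53 and −1.57). Its call against APOE33 was lost without APOE33 replicate 6 or KO replicates 1, 2 or 3 (adjusted p up to 0.0799), and that against APOE44 without KO replicates 2 or 3 (up to 0.0586). Both were lost with a replicate block (0.134 and 0.0907). The call against APOE33 was also lost without the low-count filter (0.0749) and with only the 2 groups (0.078). Of 10 receptors, 3 were higher and 1 lower against APOE33, and 3 higher and 2 lower against APOE44. Mrc1, a scavenging receptor that binds collagen, was at 405 CPM in KO, 156 CPM in APOE33 and 148 CPM in APOE44 (1.44 and 1.51). Of 8 degradation genes, 1 was higher against APOE33 and 2 higher and 1 lower against APOE44, led by the membrane collagenase Mmp14 at 399, 172 and 211 CPM (1.24 and 0.94). Between the cell types in batch 1, all 8 degradation genes were higher in microglia and all 15 processing genes lower, where 40.3% of all genes were higher and 50.6% lower. For APOE44 against APOE33, P3h4 was lower in microglia (−0.56, adjusted p = 0.0493) and no other gene of the 4 lists was called in either cell type. That call was lost in 10 of 12 fits that left out 1 library, all but those without APOE33 replicate 2 or APOE44 replicate 5 (adjusted p up to 0.154), and under every other alternative run but DESeq2's own test.

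Against WT, genotype and batch cannot be told apart. In astrocytes, 6 of 36 chains were higher and 7 lower in APOE33 (36.1%, where 39% of all genes were called, 20.1% higher and 18.9% lower). In APOE44, 9 were higher and 10 lower (52.8%, where 41.7% were, 20.6% higher and 21.1% lower), and in KO 9 and 9 (50%, where 38.3% were, 19.4% higher and 18.9% lower). These comparisons share the 6 WT libraries.

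Col9a3 was lower than in WT in all 3 other groups. It was at 9.45, 13 and 15.9 CPM (lowest, median, highest) in WT astrocytes, above every library of the other groups, with log2 fold changes of −1.78, −1.84 and −0.94 in APOE33, APOE44 and KO. The cartilage collagen Col2a1 had a mean of 1.84 CPM in WT and 0.575 to 0.79 CPM in the others (−1.49, −1.26 and −1.74), without overlap against any. Col8a2, the partner of Col8a1, had 13.9 CPM in WT and 4.62 to 5.09 CPM in the others, again without overlap. Col7a1 fell by 0.75, 0.46 and 0.49 on the log2 scale, and overlapped WT in KO. In the other direction, Col4a1 was at 151 to 199 CPM in WT, below every APOE33 library (203 to 355 CPM) and every APOE44 library (239 to 313 CPM), with log2 fold changes of 0.59 and 0.59. In KO it overlapped WT (0.48, adjusted p = 0.0207), a call lost without WT replicates 2 or 6 or KO replicates 2 or 3 (adjusted p 0.0526 to 0.0763). A replicate block (0.0544) and a fit of only the KO and WT groups (0.0631) lost that call too. Col6a1 and Col6a2, chains of the beaded filaments of type VI, were higher in APOE33 (1.09 and 1.45) and APOE44 (1.19 and 1.43) and were not called in KO, where Col6a2 was called without the sex term (0.86, adjusted p = 0.0269) and without KO replicate 1 or WT replicates 4 or 5 (0.0143 to 0.0441). Col9a1 was called in KO, at 8.58 CPM against 1.69 CPM (2.33, SE 0.278, adjusted p = 2.52e-06). It was also called in APOE33 by DESeq2 (0.64, adjusted p = 0.021), without the sex term (0.0409) and without APOE33 replicates 1 or 2 or WT replicate 6 (0.00769 to 0.0324), and in APOE44 with only the 2 groups (0.045). Col4a5, Col4a6 and Col18a1 also lay wholly above WT in KO, with log2 fold changes of 0.37, 0.29 and 1.03. Other calls against WT included Col23a1, higher in all 3 groups, and Col12a1, lower in APOE33, APOE44 and KO. Col22a1 was lower in APOE33 and KO. In APOE44, Col4a3, Col4a4 and Col11a1 were lower and Col5a1 and Col20a1 higher. In KO, Col4a2 and Col5a2 were higher.

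In microglia, 6 of 32 chains were higher and 8 lower in APOE33 than in WT (43.8%, where 44.8% of all genes were called, 22.2% higher and 22.6% lower). In APOE44, 3 were higher and 6 lower (28.1%, where 45.4% were, 22.3% higher and 23.1% lower), and in KO 5 and 6 (34.4%, where 42.4% were, 20.9% higher and 21.5% lower). Col14a1 separated WT from every other group. It was at 10.3, 11.5 and 14.4 CPM (lowest, median, highest) in WT and at no less than 50.3 CPM in any of the 16 other libraries, with log2 fold changes of 2.30, 2.25 and 2.27 in APOE33, APOE44 and KO. Col27a1 had means of 11 CPM in WT and 17.7 and 17 CPM in APOE33 and APOE44 (0.71 and 0.62), with overlap. Col18a1 was at 12.5 to 31.9 CPM in WT and 1.73 to 12 CPM in APOE33 (−2.02, SE 0.454, adjusted p = 0.00135). It was not called in APOE44 or KO, whose ranges reached 23.2 and 12.6 CPM, and without APOE44 replicate 3 it was called in APOE44 (−1.09, adjusted p = 0.039). In KO it was called by DESeq2 (−1.21, adjusted p = 0.037), without the sex term (0.0475) and with only the 2 groups (0.00113).

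**Figure D5:**
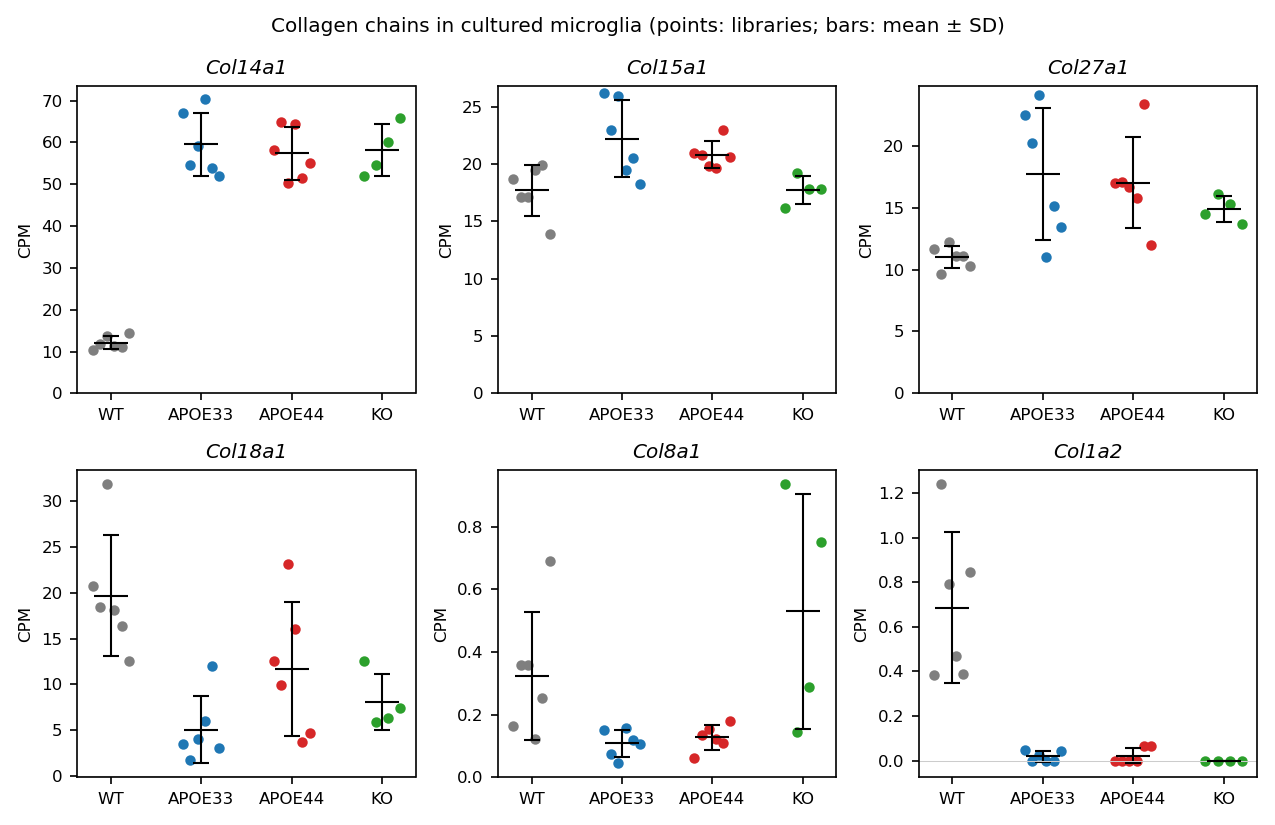
CPM of 6 chains in microglia by genotype (points are libraries, bars are mean ± SD; n = 6, 6, 6 and 4). All WT values of Col14a1 lay between 10.3 and 14.4 CPM, below every other library, and Col1a2 was near or at 0 outside WT.

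The chains of type I and III fibrils had counts in WT and almost none elsewhere in microglia. Col1a1 was at 0.298 to 1.16 CPM in WT microglia and had no count in the APOE33 or KO libraries, at least 108-fold and 68.3-fold lower against a floor of 3 counts over the group. Col3a1 was at 0.143 to 1.12 CPM in WT and at 0 in the same groups, at least 74.7-fold and 47.4-fold lower. Col1a2 was at 0.384 to 1.24 CPM in WT, no more than 0.0672 CPM in the APOE groups and at 0 in KO, at least 74.7-fold lower. With a replicate block, edgeR did not call Col1a1 (adjusted p = 0.079) or Col3a1 (0.0964) in KO microglia against WT. In astrocytes Col1a1 was at 0.545 to 3.87 CPM in WT and no more than 0.485 CPM elsewhere. Col1a2 was not called in astrocytes of any group against WT, at 0.719 to 4.89 CPM over the 22 libraries. Col3a1 was called lower in APOE44 and KO astrocytes against WT and not in APOE33. Its call in KO astrocytes was lost with a replicate block (adjusted p = 0.0742). Among fibroblast markers, Dcn was also highest in WT, at 0.326 to 1.46 CPM in microglia and 0.357 to 0.859 CPM in astrocytes. In the other groups it was at most 0.0502 CPM in microglia and 0.104 CPM in astrocytes. The whole list of 12 meningeal fibroblast markers summed to 1.85 to 5.38 CPM in WT microglia and 1.7 to 3.02 CPM in the others, where Slc22a6 was at 0 throughout and Lum at 0 outside WT. In astrocytes the list did not separate WT (914 to 1250 CPM against 870 to 2095 CPM), and Ogn made up 84.1% to 91.5% of it. The part of these markers in the type I and III results was not tested.

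Several calls against WT were lost when 1 library was left out. In astrocytes, those in APOE33 were lost for Col4a2 without APOE33 replicate 5 (adjusted p = 0.0514) and for Col18a1 without WT replicate 2 or APOE33 replicates 4 or 5 (0.0543 to 0.0627). In APOE44, Col4a2 lost its call without 1 of 6 libraries (0.0585 to 0.0849; WT replicates 2, 5 and 6, APOE44 replicates 1, 3 and 4), Col16a1 without 1 of 5 (0.0721 to 0.145; WT replicates 1, 3 and 6, APOE44 replicates 5 and 6), and Col6a5 without 1 of 5 (0.0563 to 0.15; WT replicates 1, 2 and 6, APOE44 replicates 3 and 6). In KO, Col9a2 lost it without KO replicate 1 (0.0669), Col12a1 without KO replicates 1 or 4 (0.0828 to 0.172) and Col14a1 without KO replicate 2 (0.0689). In microglia, Col9a2 in APOE33 lost its call without WT replicates 2 or 6 or APOE33 replicate 3 (0.0522 to 0.102), Col7a1 without WT replicates 2 to 6 or APOE33 replicates 1, 3 or 4 (0.0585 to 0.171), and Col5a3 in every such fit but that without APOE33 replicate 2 (0.0509 to 0.104). In APOE44, Col8a1 lost it without WT replicate 6 (0.072), Col15a1 without WT replicates 2, 3 or 6 or APOE44 replicates 5 or 6 (0.0549 to 0.104), and Col4a5 without WT replicates 1, 2, 3 or 6 or APOE44 replicates 1, 2, 4 or 5 (0.0579 to 0.0986). In KO, Col20a1 lost it without WT replicates 2, 3, 5 or 6 or KO replicates 2, 3 or 4 (0.0571 to 0.122), and Col5a3 in every such fit but that without KO replicate 4 (0.0527 to 0.155).

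In the 3 head-to-head type IV pairs, the ratio of the chains spanned less than their levels. These pairs were chosen after their values were seen, and the ratios describe libraries that share depth and culture. Col4a1 and Col4a2 start back to back and share 22 bases. Over the 22 astrocyte libraries Col4a1 ran from 151 to 355 CPM, a 2.36-fold span, while its ratio to Col4a2 ran from 2.42 to 3.59, a 1.48-fold span. That ratio still differed by group, at 2.64 to 2.9 in WT and 2.93 to 3.59 in APOE44. Col4a3 and Col4a4 lie 71 bases apart: Col4a3 spanned 3.58-fold, from 20.7 to 74.2 CPM, and its ratio to Col4a4 1.5-fold, from 0.736 to 1.1. Col4a5 and Col4a6, 1308 bases apart, had a ratio of 1.67 to 2.13, a 1.28-fold span beside 1.49-fold for Col4a5. Col6a1 and Col6a2, on the same strand, had a ratio of 0.971 to 1.98 (2.04-fold), while Col6a1 spanned 9.23-fold. Ratios were not computed for the other neighbouring pairs, such as Col3a1 and Col5a2. The type IX genes lie on 3 different chromosomes, and the ratio of Col9a1 to Col9a3 ran from 0.0809 to 1.86, a 23-fold span. Its median was 0.134 in WT and 1.09 in KO.

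The type IV chains as a class summed to 576 CPM ± 52 in WT, 687 CPM ± 84.1 in APOE33, 667 CPM ± 53.2 in APOE44 (each n = 6) and 745 CPM ± 134 in KO (n = 4). The 11 fibril chains summed to 276, 277, 264 and 310 CPM in the same order, and the 9 FACIT and FACIT-like chains to 52.2, 36.7, 38.8 and 46.9 CPM. The multiplexins summed to 50, 68, 62.8 and 109 CPM, nearly all of it Col18a1. The network chains (Col8a1, Col8a2 and Col10a1) summed to 77.3, 66.7, 63 and 87.3 CPM, the type VI chains to 4.62, 11.1, 12.1 and 7.27 CPM and the 4 membrane-spanning chains to 1.57, 2.33, 2.64 and 3.35 CPM. In microglia the FACIT chains summed to 15.7 CPM in WT and 63.4, 61.8 and 63.6 CPM in APOE33, APOE44 and KO, nearly all of it Col14a1 outside WT. The other class sums there were at most 37.4 CPM, the multiplexins in WT.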

How the data were processed

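Total RNA of 44 cultures was sequenced as read pairs from NEBNext Ultra libraries on a HiSeq instrument, per the labels' protocols. The authors deposited 1 table of raw counts per mouse gene, with no normalization. The submitters' processing notes name STAR 2.5.3a, featureCounts and edgeR 3.26.8, with hg38 as the only build. The mouse build, annotation and strand setting used for counting could not be read from them. Of 54146 gene identifiers 54079 matched GENCODE M21 (GRCm38), 96.9% with the same version, and positions and exon lengths come from it. Totals were 83239599 to 143150569 counts in astrocyte and 86313947 to 120505499 in microglial libraries. Of counts from 1 to 9, 62.4% to 78.7% were even, so a count may be 1 read of a pair. No 2 libraries of a group were identical.

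Groups follow sample titles; 1 library, replicate 1 of the APOE33 astrocytes, has WT as its genotype tag, against its title and source name, and was kept in APOE33. In R 4.3.3, edgeR 4.0.16 kept genes by filterByExpr, scaled by TMM and fitted robust quasi-likelihood F tests with sex as a covariate: 16 libraries of batch 1 per cell type, 22 for comparisons with WT, 32 or 12 between cell types. P-values were Benjamini-Hochberg adjusted over all genes tested, and the SE is the log2 fold change over the square root of F. Of the 44 chains, 36 passed the filter in astrocytes and 26 in batch 1 microglia, 32 with WT; the others are given as levels only. The procedure was run on simulated counts of independent libraries, which cannot speak to shared animals or mixed cells. The outcome of that run is not given here.

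Alternatives were DESeq2 1.42.0, its size factors in edgeR, no filter, no sex term, a replicate block, the compared groups alone, leaving out each library and, added after seeing the data, leaving out 3 microglial libraries. The rule for naming took every called chain (at most 12 per genotype comparison), all type IV chains, Col1a1, Col1a2, Col3a1, the 6 most abundant chains per cell type, 6 per direction between cell types, marked outliers and up to 4 called genes per pathway list. Not all of these are given above. Some chains called against WT and some pathway genes, above all those called against WT, are left out. Members, lists and rule were chosen with earlier results of these data known.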

Additional observations from a re-analysis of the deposited data

Results flagged for a closer look

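In groups of 4 to 6 libraries with a mean of at least 1 CPM, a limit chosen after seeing the data, the highest or lowest value was compared with the rest by Dixon's 95% criterion. It marked 11 of 147 groups, where chance marks about 1 in 20. In astrocytes, KO replicate 1 had Col4a5 at 165 CPM beside 204 to 207 CPM in the other KO libraries. KO replicate 4 had Col5a3 at 26.9 CPM (others 12 to 13.7) and Col9a3 at 6.17 CPM (others 7.21 to 7.38). APOE33 replicate 5 had Col5a2 at 168 CPM (others 109 to 128) and Col8a1 at 91.1 CPM (others 49.9 to 61.9), and APOE33 replicate 3 had Col8a2 at 6.57 CPM (others 3.9 to 4.77). APOE44 replicate 4 had Col4a5 at 142 CPM (others 159 to 166) and APOE44 replicate 6 had Col1a2 at 4.17 CPM (others 1.8 to 2.57). WT replicate 4 had Col7a1 at 4.92 CPM (others 3.45 to 3.98). In microglia, KO replicate 1 had Col7a1 at 3.03 CPM (others 3.52 to 3.53) and APOE44 replicate 2 had Col9a3 at 1.27 CPM (others 1.5 to 1.61).

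The KO effect against APOE33 differed between the cell types, microglia minus astrocytes on the log2 scale, for Col8a1 (2.14), Col4a1 (0.99) and Col15a1 (−1.37), by edgeR's test of the difference. As given above, the calls of Col4a1 and Col15a1 were lost in most fits that left out 1 library. That of Col8a1 was lost without microglia KO replicate 1 (adjusted p = 0.0531).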

How the results depend on the processing

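Over 6257 values of the named chains under an alternative, 6017 kept their side of the threshold, 206 lost a call, 34 gained one and none with a call in either fit changed sign; in 196, called in neither, the sign differed. Over every chain, named or not, 239 calls were lost and 92 gained. With DESeq2, lower chains numbered 1 for APOE44 against APOE33 in astrocytes, 4 for KO against APOE33 and 5 for KO against APOE44 in astrocytes, and 1 for KO against APOE44 in microglia; 1 chain (Col9a1) was higher in the difference of the APOE44 effect between cell types. Over all genes, DESeq2 called 2426 lower for KO against APOE33 and 2930 for KO against APOE44 in astrocytes, beside 1808 and 2407 in edgeR. With only the compared groups, lower chains numbered 0 for KO against APOE33 in astrocytes, 1 in microglia, and 2 for KO against APOE44 in microglia, and 5 were higher for APOE44 against WT in microglia. Genes called there numbered, in the same order, 873, 1528 and 2414 lower and 4159 higher. The main fits had 1808, 2036 and 2289 lower and 4024 higher. Without the filter, and without the sex term, 1 was lower for KO against APOE33 in microglia. Of all genes, 1498 of 31214 and 2130 of 17143 were lower in these fits, beside 2036 of 17143 in the main fit. In the difference of the KO effect, no filter gave 1 higher and 0 lower, and leaving out the 3 APOE microglial libraries highest in astrocyte and neuron markers (APOE33 replicate 2, APOE44 replicates 3 and 6; KO libraries were higher in astrocyte markers), added after seeing the data, gave 4 higher and 0 lower; there Col4a1 was also called for KO against APOE44 in microglia (0.97, adjusted p = 0.0229). For that difference, genes called without the filter numbered 1037 higher and 1104 lower of 37581. Without the 3 libraries they numbered 1634 and 1156 of 21571, beside 1338 and 1417 of 21647 in the main fit. The cause of these shifts was not tested.

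Same-numbered libraries correlated at −0.59 to 0.54 after group and sex were removed, and in no comparison was every pair over 0.1. All 22 same-numbered astrocyte and microglial libraries had the same sex label. Low correlations cannot exclude that same-numbered libraries share animals, which the labels do not give. The main fits took all libraries as independent. A replicate block gave 0 lower chains for KO against APOE33 and 1 for KO against APOE44 in astrocytes, 2 higher and 1 lower for KO against APOE33 and 3 lower for KO against WT in microglia, and 1 higher and 0 lower in the difference of the KO effect. The block lowered calls over all genes too. In astrocytes, 973 genes were lower against APOE33 and 1662 against APOE44, beside 1808 and 2407 in the main fits. In microglia, 1373 were higher and 1341 lower against APOE33, beside 1863 and 2036, and 3515 lower against WT, beside 3885. The difference of the KO effect had 1043 higher and 1126 lower, beside 1338 and 1417.

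Leaving out 1 library gave these ranges of higher and lower chains, for which counts over all genes are not given here. In astrocytes: KO against APOE33, 4 to 8 and 0 to 3; KO against APOE44, 5 to 10 and 1 to 4; APOE33 against WT, 4 to 7 and 7 to 8; APOE44 against WT, 6 to 9 and 10 to 11; KO against WT, 7 to 10 and 7 to 9. In microglia: KO against APOE33, 2 to 4 and 0 to 2; KO against APOE44, 4 to 5 and 0; APOE44 against APOE33, 0 to 1 and 0; APOE33 against WT, 4 to 6 and 7 to 9; APOE44 against WT, 2 to 4 and 4 to 8; KO against WT, 4 to 5 and 5 to 6. Between cell types: batch 1, 4 and 31; WT, 3 to 5 and 30; difference of the APOE44 effect, 0 to 3 and 0; of the KO effect, 0 to 2 and 0 to 2.

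The KO groups held 4 libraries, and chains under 1 CPM rest on few counts. WT against any other genotype has no within-batch value.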
